A study of Mus musculus with 6 samples.

Results

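The genes described here build the junctions between epithelial cells or mark epithelial identity. They comprise 10 claudins, 8 other tight junction components, 7 genes of adherens junctions and cell adhesion, 5 desmosomal genes, 7 transcription and splicing factors of epithelia, 4 membrane serine proteases or their inhibitors and 3 genes of epithelial trafficking or the apical membrane. The 44 genes were listed by symbol for their known roles, not by a threshold on a measured value, but with earlier results of these data known. They were matched to the Ensembl identifiers of the read count table. All 44 were found among its 37224 genes and all 44 were among the 15578 genes with enough counts to be tested.

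RNA was taken from whole embryonic pancreata of wild type (wt) C57/Bl6J mice at 13.5 or 15.5 days post coitum (dpc), with 3 samples per stage. Both stages carried the same genotype and strain and neither was treated, so that stage is the only labelled difference. Each sample was a pool of pancreata from up to 3 embryos, which averages over embryos, and the samples of a stage were independent pools. Poly(A) RNA was made into strand-specific libraries, and the comparison asks how the genes differ over the wave of acinar and endocrine differentiation known as the secondary transition.

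Epithelial cells are held together by tight junctions, in which claudin strands set what passes between cells, by adherens junctions, in which cadherins are tied to actin through catenins, and by desmosomes, which are tied to keratin filaments. In the developing pancreas a branching epithelium forms tips that become acini and a trunk that becomes ducts and islets, surrounded by mesenchyme that carries other cadherins. Snail, Zeb and Twist factors repress epithelial genes during epithelial to mesenchymal transition (EMT), whereas Ovol and Grhl factors and the Esrp splicing factors maintain the epithelial state.

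The libraries held between 10546028 and 16389237 counted reads, and the 44 genes took 0.537% to 0.56% of the counts at 13.5 dpc against 0.611% to 0.621% at 15.5 dpc. Normalised counts are read counts scaled to a common effective library size, and RPKM values are read counts divided by exon length and effective library size. The 3 libraries of 15.5 dpc were less alike than those of 13.5 dpc, and the median coefficient of variation of the 44 genes was 4.65% at 13.5 dpc and 15.1% at 15.5 dpc, against 6.55% and 18.0% over all genes tested. Between replicates 1 and 2 of 15.5 dpc the log2 ratio was related to the exon length of the gene (Spearman's rho -0.85 over the 44 genes and -0.59 over all 15578), whereas between replicates 1 and 2 of 13.5 dpc rho was -0.18 and -0.03; these are correlations across genes of the same libraries. Pancreatic epithelium was present at both stages, since Pdx1 was at 1194 to 1284 normalised counts at 13.5 dpc against 1265 to 1470 at 15.5 dpc. Of the stomach and intestine markers, Muc5ac and Tff1 were at 0 in every library, and Vil1, which is also found in pancreas, was the only one with enough counts to be tested. Vil1 rose by log2 1.20 (SE 0.14, adjusted p = 0.00162 by edgeR), and the sum of the 7 markers was 11.7 to 13.6 counts scaled by effective library size (CPM) at 13.5 dpc against 24.0 to 29.2 at 15.5 dpc.

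Of the 44 genes, 19 rose and 3 fell between 13.5 and 15.5 dpc, whereas 22 did not pass the test (edgeR's quasi-likelihood test, adjusted p at or below 0.05 over all genes tested). The share of all genes tested was 11.6% for a rise and 10.7% for a fall. The 19 were Cldn10, Cldn8, Cldn3, Tjp3, Marveld3, Ocln, Cdh1, Jup, Pkp2, Pkp3, Ovol1, Elf3, Ehf, Esrp2, Spint2, Spint1, St14, Rab25 and Ap1m2, and the 3 were Cldn9, Cdh2 and Cdh11. The median log2 fold change of the 44 was 0.38, against -0.01 over all genes tested. For 30 of the 44 no library of one stage lay within the range of the other, which held for 46.4% of all genes tested. By the numeric thresholds of the study's methods, applied here to edgeR's adjusted p and to all genes tested without a restriction to mRNAs (adjusted p at or below 0.1, a mean over 100 normalised counts at 1 or both stages, and a fold below 0.6 or above 1.6), 9 genes were higher and 2 were lower at 15.5 dpc, where the share of all genes tested was 6.3% and 3.58%. In these bulk samples, fewer cells of a type and less RNA per cell cannot be told apart.

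**Figure D1:**
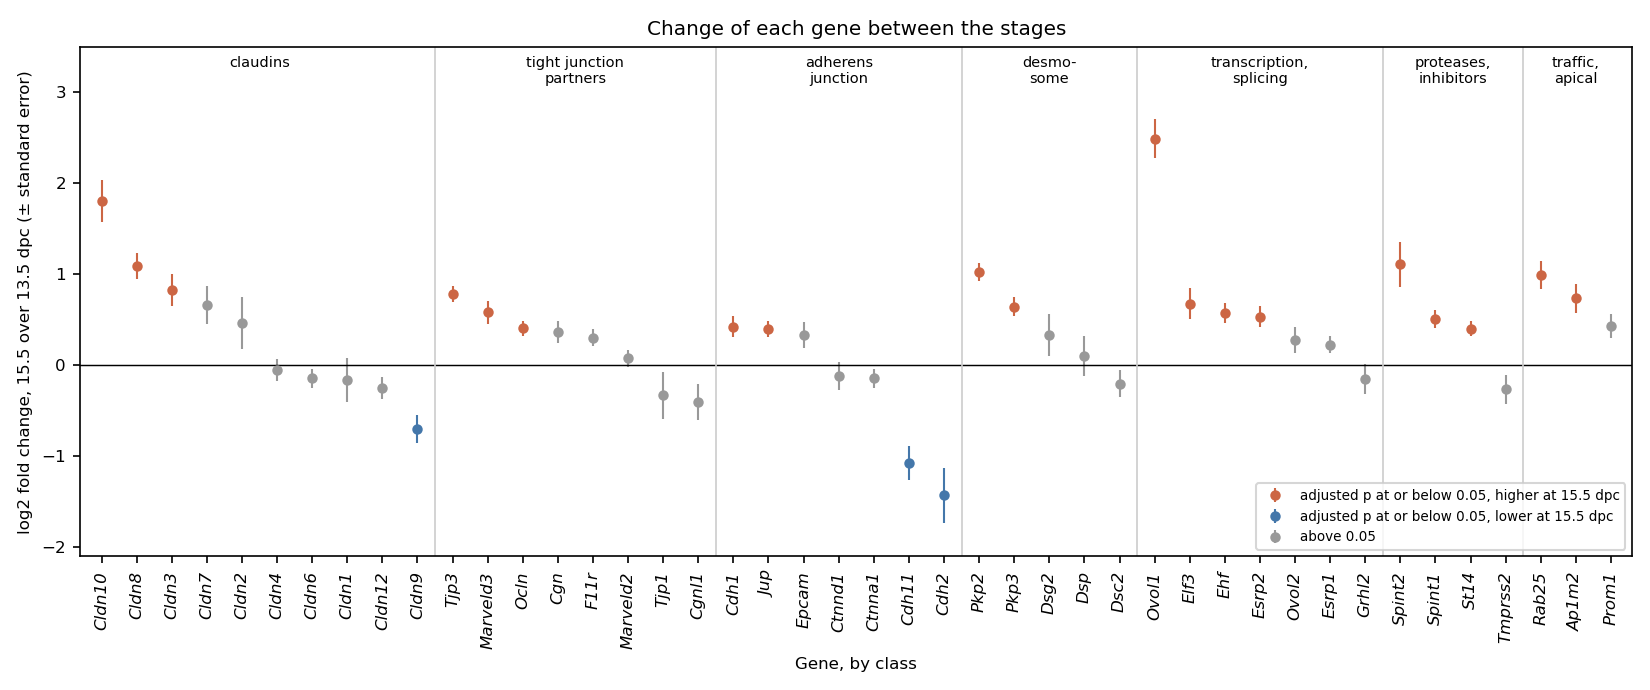
Log2 fold change of each of the 44 genes, 15.5 over 13.5 dpc (y axis), ordered by class and size (x axis); points are fitted values and bars are ± 1 standard error from 3 samples per stage. Ovol1 rose most (2.49) and Cdh2 fell most (-1.43), and each of the 7 classes holds at least 1 gene that did not pass the test.

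The counts of calls moved with the libraries used, among the 44 genes and among all genes tested. Without replicate 1 or replicate 2 of 13.5 dpc, 7 of the genes rose and 1 fell, and without replicate 3 of 13.5 dpc or replicate 3 of 15.5 dpc 9 and 8 rose and 1 fell. In these 4 fits 4.54% to 5.4% of all genes tested rose and 3.29% to 3.84% fell. Without replicate 1 of 15.5 dpc 24 rose and 4 fell, beside 14.1% and 12.8% of all genes tested. Without replicate 2 of 15.5 dpc 25 rose and 7 fell, beside 24.7% and 23.3%, and the added falls were Tjp1, Cgnl1, Dsc2 and Grhl2. The calls of 8 genes (Cldn8, Cldn10, Tjp3, Cdh11, Pkp2, Pkp3, Ovol1 and Rab25) held in each of these fits and under each other scaling, filter, tool or design tried, and all 22 called genes kept their direction. Scaling by library size alone, which shifted the median of all genes to -0.22, ended the calls of Ocln, Marveld3, Cdh1, Jup, Esrp2, Ehf and St14. DESeq2, the tool of the study's methods, called 23 rises and 3 falls, beside 15.2% and 12.2% of all genes tested. These held all 22 genes called by edgeR and, as rises, also Cldn7, F11r, Cgn and Prom1 (DESeq2's adjusted p = 0.019, 0.0167, 0.0235 and 0.0273).

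To show the sequence in front of genes that rose, the 250 bases before the start of transcription were taken from a table of RefSeq promoters (build GRCm38.p6) that was used for 27 of the 44 genes; the other 17 were not analysed here. Shown are the 4 of these 27 genes that rose most, Cldn10 (with a window for each of its starts, chr14:118787621-118787870 and chr14:118854700-118854949, plus strand), Spint2 (chr7:29281978-29282227, minus strand), Rab25 (chr3:88548280-88548529, minus strand) and Cldn3 (chr5:134985964-134986213, plus strand), and also Ap1m2 (chr9:21312334-21312583, minus strand), chosen afterwards because it held the most matches. Sequences run 5′ to 3′ on the strand of the gene, and capitals mark the E-box CACCTG, or CAGGTG where it lies on the other strand, the letters bound by Snail and Zeb factors.
Cldn10 upstream start: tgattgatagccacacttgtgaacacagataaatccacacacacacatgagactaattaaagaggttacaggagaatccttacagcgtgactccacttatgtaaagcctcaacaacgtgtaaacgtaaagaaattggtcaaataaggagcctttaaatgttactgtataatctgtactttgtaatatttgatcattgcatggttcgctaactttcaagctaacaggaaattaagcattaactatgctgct
Cldn10 downstream start: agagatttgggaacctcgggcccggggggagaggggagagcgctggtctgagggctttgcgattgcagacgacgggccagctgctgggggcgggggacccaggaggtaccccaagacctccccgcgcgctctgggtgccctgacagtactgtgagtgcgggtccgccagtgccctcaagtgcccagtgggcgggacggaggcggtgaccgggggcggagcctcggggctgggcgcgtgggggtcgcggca
Spint2: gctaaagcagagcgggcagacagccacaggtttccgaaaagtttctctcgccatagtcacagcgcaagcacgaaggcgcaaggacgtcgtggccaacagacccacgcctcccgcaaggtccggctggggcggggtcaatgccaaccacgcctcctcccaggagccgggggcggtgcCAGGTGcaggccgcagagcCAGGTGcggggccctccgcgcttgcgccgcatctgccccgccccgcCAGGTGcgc
Rab25: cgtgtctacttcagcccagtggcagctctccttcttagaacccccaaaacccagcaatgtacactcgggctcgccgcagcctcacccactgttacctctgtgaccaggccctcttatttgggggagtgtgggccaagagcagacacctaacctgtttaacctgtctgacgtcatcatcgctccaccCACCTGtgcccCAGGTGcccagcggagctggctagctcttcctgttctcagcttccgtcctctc
Cldn3: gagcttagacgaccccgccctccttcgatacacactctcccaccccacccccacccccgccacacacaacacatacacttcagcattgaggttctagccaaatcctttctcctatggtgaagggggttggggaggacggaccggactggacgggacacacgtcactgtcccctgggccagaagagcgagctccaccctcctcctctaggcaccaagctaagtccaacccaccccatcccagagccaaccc
Ap1m2: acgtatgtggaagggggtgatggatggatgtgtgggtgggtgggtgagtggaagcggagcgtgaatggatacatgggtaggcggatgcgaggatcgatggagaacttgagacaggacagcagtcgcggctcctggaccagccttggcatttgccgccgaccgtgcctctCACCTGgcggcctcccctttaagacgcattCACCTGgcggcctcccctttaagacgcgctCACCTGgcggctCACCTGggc
The windows of Cldn10 held no E-box and differed in base composition, with 36% G and C at the upstream start and 72.4% at the downstream start. The window of Spint2 held 3 E-boxes on the opposite strand, 74, 55 and 9 bases before the start, that of Rab25 held 1 on each strand at 64 and 53 bases, and that of Ap1m2 held 4 at 81, 51, 21 and 9 bases. The window of Cldn3 held none.

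Over both strands, 12 of the 27 genes (44.4%) held CACCTG in these windows, namely Ap1m2, Cldn4, Cldn6, Cldn7, Elf3, Epcam, F11r, Ocln, Prom1, Rab25, Spint2 and Tjp3, against 19.4% of all 27025 genes of the promoter table and 19.3% of the 11251 tested genes in it. Of the 27 genes 10 rose and 6 of these held it, and the other 6 genes with an E-box did not pass the test. The Ets letters CCGGAAGT were found in Cldn7 and Spint1 (3.23% of all genes of the table and 6.21% of tested ones). The Ovol letters CCGTTA (2.52% and 3.44%) and the Grhl letters AACCGGTT (0.137% and 0.24%) were in none of the 27 windows. A match describes the letters of the window and is no measure of binding.

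Claudins form the strands of tight junctions, and 3 of the 10 rose, 1 fell and 6 did not pass the test, with a median log2 fold change of 0.21. Cldn10 (chr14:118787871-118875489, plus strand, mm10), whose isoforms form pores for anions or cations, had 840.1, 874 and 816 normalised counts at 13.5 dpc against 4048, 2085 and 2724 at 15.5 dpc. Each library of 15.5 dpc was above each of 13.5 dpc, and replicate 1 was the highest. The rise was 3.5-fold (log2 fold change 1.81, SE 0.23, adjusted p = 0.00242 by edgeR), and the counts are summed over both starts, so that the isoforms cannot be told apart. Cldn8 (chr16:88560828-88563183, minus strand), a claudin of tight, barrier-forming epithelia, had 102, 116 and 94.8 counts at 13.5 dpc against 249, 198 and 220.4 at 15.5 dpc, a 2.13-fold rise without overlap (log2 1.09, SE 0.14, adjusted p = 0.00275). Cldn3 (chr5:134986214-134987476, plus strand), a sealing claudin, rose from 1959, 1893 and 2128 counts to 4546, 2840 and 3236 (log2 0.83, SE 0.18, adjusted p = 0.0162).

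Cldn9 (chr17:23682584-23684026, minus strand) was the claudin that fell, from 107, 99.5 and 118 counts to 77.5, 60.3 and 63.0 (log2 -0.70, SE 0.16, adjusted p = 0.0202). Its neighbour Cldn6 (chr17:23679365-23682446, plus strand), a claudin of embryonic epithelia, had 3389, 3430 and 3436 counts at 13.5 dpc against 3486, 2866 and 2939 at 15.5 dpc. The stages overlapped for Cldn6, and its log2 fold change of -0.14 did not pass the test (adjusted p = 0.33). Cldn7, which also lies along lateral membranes, had 1608, 1551 and 1627 counts and then 3454, 1853 and 2293, which did not overlap, yet its log2 fold change of 0.67 missed the threshold (SE 0.21, adjusted p = 0.0612). The other 4 did not pass, with log2 fold changes of 0.46 for Cldn2, which forms cation and water pores, -0.05 for Cldn4, -0.16 for Cldn1 and -0.25 for Cldn12. Cldn1 and Cldn2 were at 19.4 to 74.7 counts in all libraries, and their changes were the least precise among the 10 claudins (SE 0.24 and 0.29, beside 0.23 for Cldn10). Cldn3 and Cldn9 lost their calls when any 1 of the 3 libraries of 13.5 dpc was left out, and Cldn9 also without replicate 3 of 15.5 dpc, with adjusted p of up to 0.0769 and 0.0928.

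**Figure D2:**
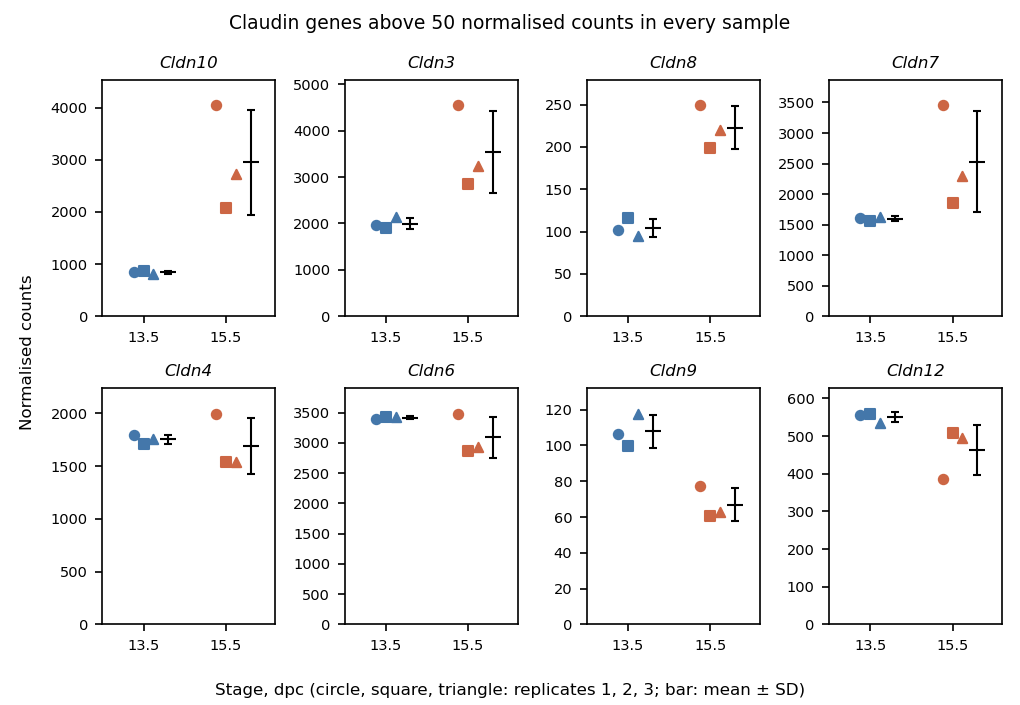
Normalised counts (y axis) of the 8 claudins above 50 counts in every sample at 13.5 and 15.5 dpc (x axis); circles, squares and triangles are replicates 1, 2 and 3, and bars are the mean ± SD. Cldn10, Cldn3 and Cldn8 sit higher in all 3 samples of 15.5 dpc, Cldn9 sits lower, and replicate 1 is the highest library of 15.5 dpc for 7 of the 8, the exception being Cldn12.

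The length-scaled levels show how the claudins stand to each other. At 13.5 dpc Cldn6 was the most abundant at 180 RPKM ± 1.35 (SD, n = 3), followed by Cldn3 at 125 ± 7.60, Cldn4 at 76.7 ± 1.79, Cldn7 at 64.8 ± 1.61 and Cldn10 at 25.4 ± 0.872. At 15.5 dpc Cldn3 was at 222 ± 56.0, Cldn6 at 163 ± 17.8, Cldn7 at 103 ± 33.6, Cldn10 at 88.9 ± 30.2 and Cldn4 at 74.0 ± 11.6, and the spread of Cldn7, Cldn10 and Cldn4 overlapped. Within a library the scaling cancels, and the ratio of Cldn10 to Cldn6 was 0.142, 0.146 and 0.136 at 13.5 dpc and 0.665, 0.417 and 0.531 at 15.5 dpc. The ratio of Cldn3 to Cldn4 was 1.57, 1.59 and 1.74 and then 3.26, 2.65 and 3.01. Neither ratio overlapped between the stages.

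**Figure D3:**
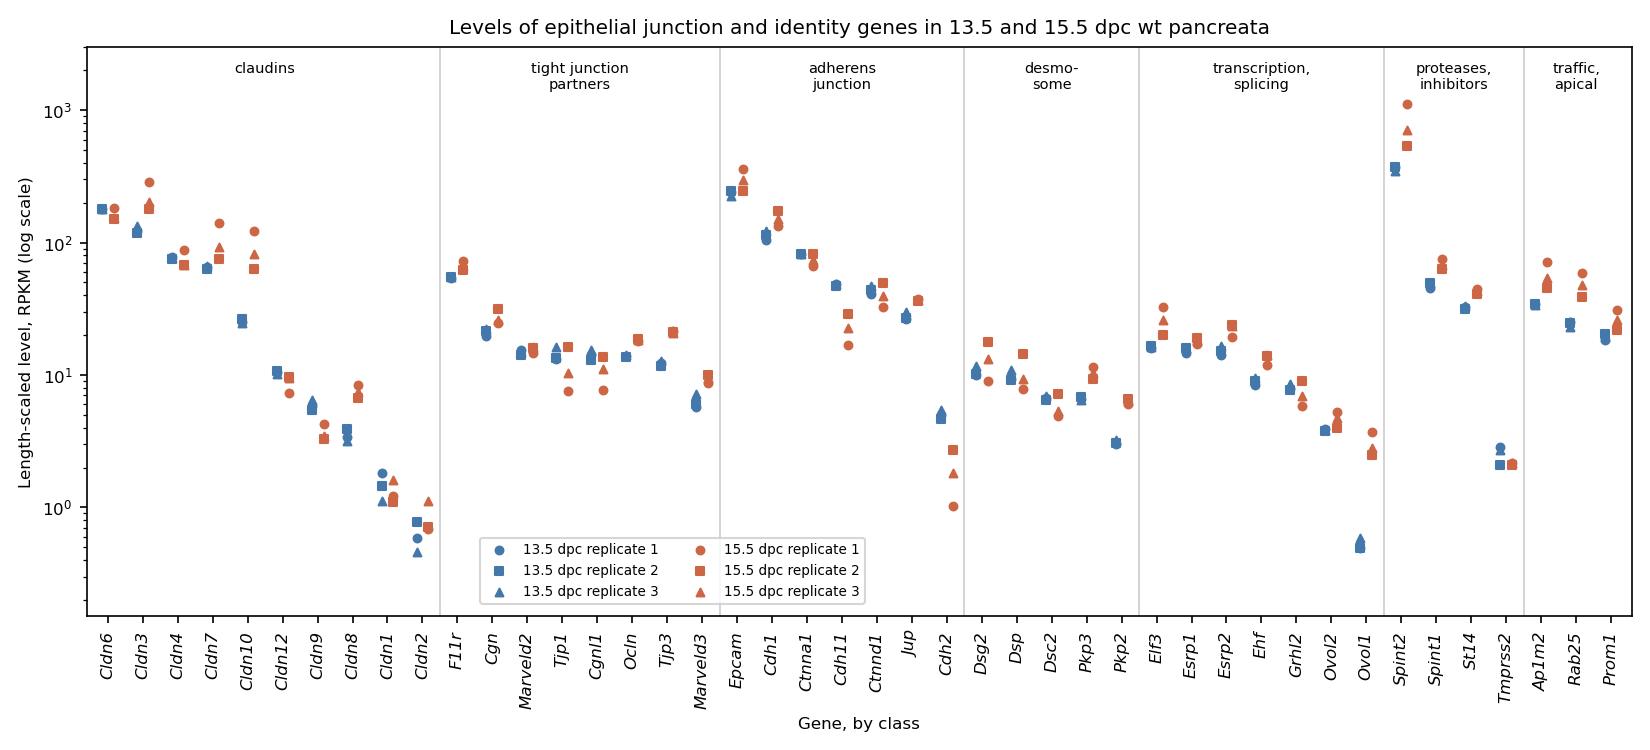
Length-scaled level of each of the 44 genes in each library, in RPKM on a log scale (y axis), by class and by level (x axis); blue is 13.5 dpc, red is 15.5 dpc, and the shape gives the replicate. Spint2 is the most abundant of the 44 at 364 and 786 RPKM on average, and Ovol1 at 13.5 dpc and Cldn2 are among the lowest.

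Acinar markers rose in the same comparison. Of 9 acinar markers 8 rose, and their summed level was 4949 to 6001 CPM at 13.5 dpc and 30490 to 72480 at 15.5 dpc. At 15.5 dpc replicate 1 was the highest of the acinar sums and replicate 2 the lowest, which is also the order of 12 of the 19 genes that rose (Cldn3, Cldn8, Cldn10, Jup, Pkp3, Ovol1, Elf3, Spint1, Spint2, St14, Rab25 and Ap1m2). The reverse order was seen for 5 of the 19 (Ocln, Marveld3, Cdh1, Pkp2 and Esrp2), and the median exon length was 2492 bases for the 12 and 4340 bases for the 5. Of 6 markers of pancreatic epithelium 2 rose (Ptf1a, which is also an acinar marker, and Foxa2) and 2 fell (Sox9 and Nkx6-1). Their sum was 669.9 to 718 CPM and then 729.5 to 787, and without Ptf1a it was 622.5 to 667 and then 514 to 574. The part of the acinar markers, or of gene length, in this order was not tested.

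The other tight junction genes anchor or seal the strands, and 3 of the 8 rose, none fell and 5 did not pass the test, with a median log2 fold change of 0.34. Tjp3 (chr10:81273207-81291267, minus strand), the scaffold ZO-3, had 474, 447 and 489 normalised counts at 13.5 dpc against 822, 802 and 797 at 15.5 dpc. The 1.72-fold rise was far larger than the spread within either stage (log2 0.78, SE 0.09, adjusted p = 0.00159). Marveld3 and Ocln (occludin), tetraspan proteins of the strands, had 237 to 297 and 727 to 749.9 counts at 13.5 dpc, and 363 to 418 and 966 to 1003 at 15.5 dpc. They rose by log2 0.58 (SE 0.12, adjusted p = 0.0167) and 0.41 (SE 0.08, adjusted p = 0.0136), whereas their relative Marveld2 (tricellulin), which seals the corners where cells meet, was at a log2 fold change of 0.08.

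F11r, the adhesion molecule JAM-A and the most abundant of this class per length at 54.6 RPKM ± 0.328 and then 67.5 ± 5.44 (SD, n = 3), had 1827, 1849 and 1842 counts and then 2463, 2098 and 2255. Its stages did not overlap, and its log2 fold change of 0.30 was just above the threshold (SE 0.09, adjusted p = 0.0523). Cgn (cingulin), which links the junction to actomyosin, was at log2 0.37 (adjusted p = 0.0612), and 17.2% of its 50-base exon windows also occur in other genes of the table. The scaffold Tjp1 (ZO-1) and Cgnl1 (paracingulin), whose exons span 7360 and 7844 bases, were at -0.33 and -0.41 and overlapped between the stages. In both, replicate 1 of 15.5 dpc was the lowest library and replicate 2 the highest of its stage. Both genes were called lower when replicate 2 of 15.5 dpc was left out. Ocln and Marveld3 lost their calls without replicate 1 or 2 of 13.5 dpc or replicate 3 of 15.5 dpc, and Ocln also without replicate 3 of 13.5 dpc, with adjusted p of up to 0.0852 and 0.0873.

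Of 12 further tight junction genes, 2 rose and 3 fell, beside 11.6% and 10.7% of all genes tested. Lsr, which recruits tricellulin to cell corners, rose by log2 0.91 (SE 0.17, adjusted p = 0.0112) and the junction-associated transcription regulator Ybx3 by 0.56 (adjusted p = 0.0226). Jam2 and Jam3, adhesion molecules found on endothelium and other cells, fell by 0.82 and 0.61, and the scaffold Magi2 fell by 0.71 on the log2 scale (adjusted p = 0.0132, 0.00887 and 0.0271 by edgeR). None of the 12 was called without replicate 1 or without replicate 2 of 13.5 dpc, 1 fall was called without replicate 3 of 13.5 dpc, and 1 rise and 1 fall without replicate 3 of 15.5 dpc. Without replicate 2 of 15.5 dpc 2 rose and 5 fell. Of 14 further claudins, 13 were in the table and 5 were tested, of which 1 rose. This was Cldn18, a claudin of stomach and lung, with 10.9, 27.4 and 28.7 counts at 13.5 dpc against 156, 119 and 125 at 15.5 dpc (log2 2.54, SE 0.31, adjusted p = 0.00211), and without replicate 2 of 15.5 dpc 3 of these claudins were called higher. The endothelial claudin Cldn5 was at log2 0.33 and did not pass the test (adjusted p = 0.152), and of 7 endothelial markers 1 rose and none fell.

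Of the 7 adherens junction genes 2 rose, 2 fell and 3 did not pass, and of the cadherins among them Cdh1 rose whereas Cdh2 and Cdh11 fell. P-cadherin (Cdh3), which is outside the 7 and given below, also fell. Cdh1 (E-cadherin, chr8:106603351-106670246, plus strand), a cadherin of epithelia, had 6047, 6611 and 7024 normalised counts at 13.5 dpc against 7767, 9963 and 8735 at 15.5 dpc. The stages did not overlap, and the rise of log2 0.43 was close to the threshold (SE 0.12, adjusted p = 0.0419). Cdh11 (chr8:102632995-102785111, minus strand), a cadherin of mesenchyme, fell from 2590, 2525 and 2571 counts to 893, 1542 and 1215 (log2 -1.07, SE 0.18, adjusted p = 0.00759). Cdh2 (N-cadherin), found in mesenchyme, nerve and endocrine cells, fell from 510.3, 476 and 554 counts to 104, 278 and 184 (log2 -1.43, SE 0.30, adjusted p = 0.0157). For both, replicate 1 was the lowest and replicate 2 the highest of 15.5 dpc. The ratio of Cdh1 to Cdh11 per length was 2.15, 2.41 and 2.52 at 13.5 dpc and 8.02, 5.96 and 6.63 at 15.5 dpc, and did not overlap.

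Jup (plakoglobin), which ties cadherins of adherens junctions and desmosomes to the cytoskeleton, had 2165, 2205 and 2445 counts and then 3046, 2941 and 3010.0, a rise of log2 0.40 (SE 0.09, adjusted p = 0.019). Epcam, an epithelial adhesion molecule and the most abundant of the class at 237 RPKM ± 9.74 and then 299 ± 57.1 (SD, n = 3), had 6184, 6294 and 5815 counts and then 9231, 6295 and 7602. The lowest library of 15.5 dpc lay barely above the highest of 13.5 dpc, and the log2 fold change of 0.34 did not pass (SE 0.14, adjusted p = 0.127). The catenins Ctnna1 and Ctnnd1 were at -0.14 and -0.11 and did not pass. The calls of Cdh1, Jup and Cdh2 were lost when any 1 of the 3 libraries of 13.5 dpc was left out or without replicate 3 of 15.5 dpc (adjusted p of up to 0.173, 0.111 and 0.0718), and that of Cdh1 also with upper quartile scaling or without a filter on low counts.

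Of 17 further adherens junction genes, none rose and 2 fell, a share close to the 10.7% of all genes tested. The falls numbered 1 when any 1 library of 13.5 dpc was left out or without replicate 3 of 15.5 dpc, and 6 without replicate 2 of 15.5 dpc. Cdh3 (P-cadherin) fell from 1700, 1676 and 1786 counts to 775, 1053 and 936 (log2 -0.90, SE 0.12, adjusted p = 0.00345), and the adhesion molecule Nectin3 fell by 0.55 (adjusted p = 0.0145). Ctnnb1, the beta-catenin that joins cadherins to alpha-catenin, was at 18840 to 19040 counts at 13.5 dpc against 16740 to 18620 at 15.5 dpc (log2 -0.09). Of 11 mesenchymal markers 5 fell and 2 rose, among them Pdgfra at log2 -1.33 and Dcn at 0.61, and their summed level was 8888 to 10170 CPM at 13.5 dpc and 6397, 9946 and 8542 at 15.5 dpc. The lowest of these sums was in replicate 1 of 15.5 dpc, the library in which Cdh2 and Cdh11 were lowest. Of 5 neural and glial markers 3 fell and 1 rose. Of 10 endocrine markers 3 fell (Chgb, Insm1 and Neurog3) and 2 rose (Ins2 and Sst), and their sum was 2354 to 2533 CPM and then 2208 to 3322. The part of mesenchyme, nerve and endocrine cells in the falls of Cdh2, Cdh11 and Cdh3 was not tested.

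Of the 5 desmosomal genes, the plakophilins Pkp2 and Pkp3 rose and Dsp, Dsg2 and Dsc2 did not pass the test. Pkp2 (chr16:16213318-16272712, plus strand), an armadillo protein of the desmosomal plaque, had 202, 209 and 218 normalised counts at 13.5 dpc against 408, 448 and 431 at 15.5 dpc. The 2.04-fold rise was larger than the spread within either stage (log2 1.03, SE 0.10, adjusted p = 0.000976). Pkp3 (chr7:141078218-141090510, plus strand) rose from 299.8, 309.5 and 298 counts to 525, 427 and 471 (log2 0.65, SE 0.11, adjusted p = 0.00694). The desmosomal cadherin Dsg2, the most abundant of the class at 10.6 RPKM ± 0.906 and then 13.4 ± 4.47 (SD, n = 3), had 1038, 1066 and 1214 counts and then 933, 1866 and 1389. Dsg2 thus spread over both sides of the earlier values (log2 0.34, SE 0.23, adjusted p = 0.306), as did Dsp (desmoplakin, 0.10) and the cadherin Dsc2 (-0.20), which have 8268, 9625 and 5277 exon bases.

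Of 8 further desmosomal genes 5 were tested. Perp, a tetraspan protein of desmosomes, rose from 186, 178 and 183 counts to 848, 483 and 619.5 (log2 1.83, SE 0.20, adjusted p = 0.00153). Dsc3, a cadherin of stratified epithelia, fell from 62.9, 57.4 and 84.0 counts to 4.15, 21.5 and 22.7 (log2 -2.03, SE 0.41, adjusted p = 0.0141), a call that was lost without replicate 1 or replicate 3 of 13.5 dpc. Dsc3 was not tested with the filter of at least 10 counts in every sample.

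The transcription and splicing factors of epithelia gave 4 rises, no fall and 3 genes that did not pass, with a median log2 fold change of 0.54. Ovol1 (chr19:5549137-5560575, minus strand), a zinc finger repressor of mesenchymal genes, had 18.2, 18.0 and 21.6 normalised counts at 13.5 dpc against 136, 91.0 and 103 at 15.5 dpc. The 5.62-fold rise was the largest of the 44 genes (log2 2.49, SE 0.21, adjusted p = 0.00074). Its relative Ovol2 was at 104.8, 100.3 and 102 counts and then 139.8, 106 and 127, without overlap and short of the threshold (log2 0.28, SE 0.14, adjusted p = 0.194), and 17% of its exon bases overlap a gene on the other strand. The Ets factors Elf3 and Ehf had 407, 419 and 412 and 591, 637 and 669.5 counts at 13.5 dpc, and 819, 505 and 659.8 and 834.5, 987 and 1001 at 15.5 dpc. They rose by log2 0.68 (SE 0.17, adjusted p = 0.0297) and 0.57 (SE 0.11, adjusted p = 0.011), and replicate 1 was the highest library of 15.5 dpc for Elf3 and the lowest for Ehf, which has 5576 exon bases against 2000 for Elf3.

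The splicing factors Esrp1 and Esrp2 direct epithelial isoforms. Esrp2 rose from 779, 833 and 914 counts to 1066, 1314 and 1284 (log2 0.54, SE 0.12, adjusted p = 0.018), whereas Esrp1 had 1158, 1279 and 1263 and then 1370.0, 1525 and 1437 and did not pass (log2 0.23, SE 0.09, adjusted p = 0.109). Per length, the ratio of Esrp1 to Esrp2 was 1.02, 1.06 and 0.951 at 13.5 dpc and 0.885, 0.799 and 0.770 at 15.5 dpc. Grhl2, a factor that activates Cdh1 and claudin genes, was at 549, 538 and 598 counts and then 407, 629 and 479.8, with overlap (log2 -0.15, adjusted p = 0.516 by edgeR). Grhl2 was called lower when replicate 2 of 15.5 dpc was left out. The calls of Elf3, Ehf and Esrp2 were lost without replicate 1 or 2 of 13.5 dpc or replicate 3 of 15.5 dpc, and those of Elf3 and Esrp2 also without replicate 3 of 13.5 dpc, with adjusted p of up to 0.11, 0.0705 and 0.095.

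Of 6 EMT factors, which repress epithelial genes, 5 fell and none rose, where 10.7% of all genes tested fell. Zeb2 did not pass (log2 -0.56, SE 0.23, adjusted p = 0.114 by edgeR). Snai2 had 499, 453 and 425 counts at 13.5 dpc against 179.9, 237 and 224 at 15.5 dpc (log2 -1.10, SE 0.14, adjusted p = 0.0022), and Zeb1 had 1015, 908 and 1021 and then 397, 675 and 516 (log2 -0.89, SE 0.18, adjusted p = 0.0153). Twist2, Twist1 and Snai1 fell by 0.66, 0.60 and 0.46 on the log2 scale (adjusted p = 0.0171, 0.0411 and 0.0394 by edgeR). When any 1 library of 13.5 dpc was left out, or without replicate 3 of 15.5 dpc, 1 of the 6 was still called. In those fits 3.29% to 3.84% of all genes tested fell. These genes are also expressed by mesenchyme, and the sums of the mesenchymal markers given for Cdh2 and Cdh11 stand beside them too. Their part in these falls was not tested.

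**Figure D4:**
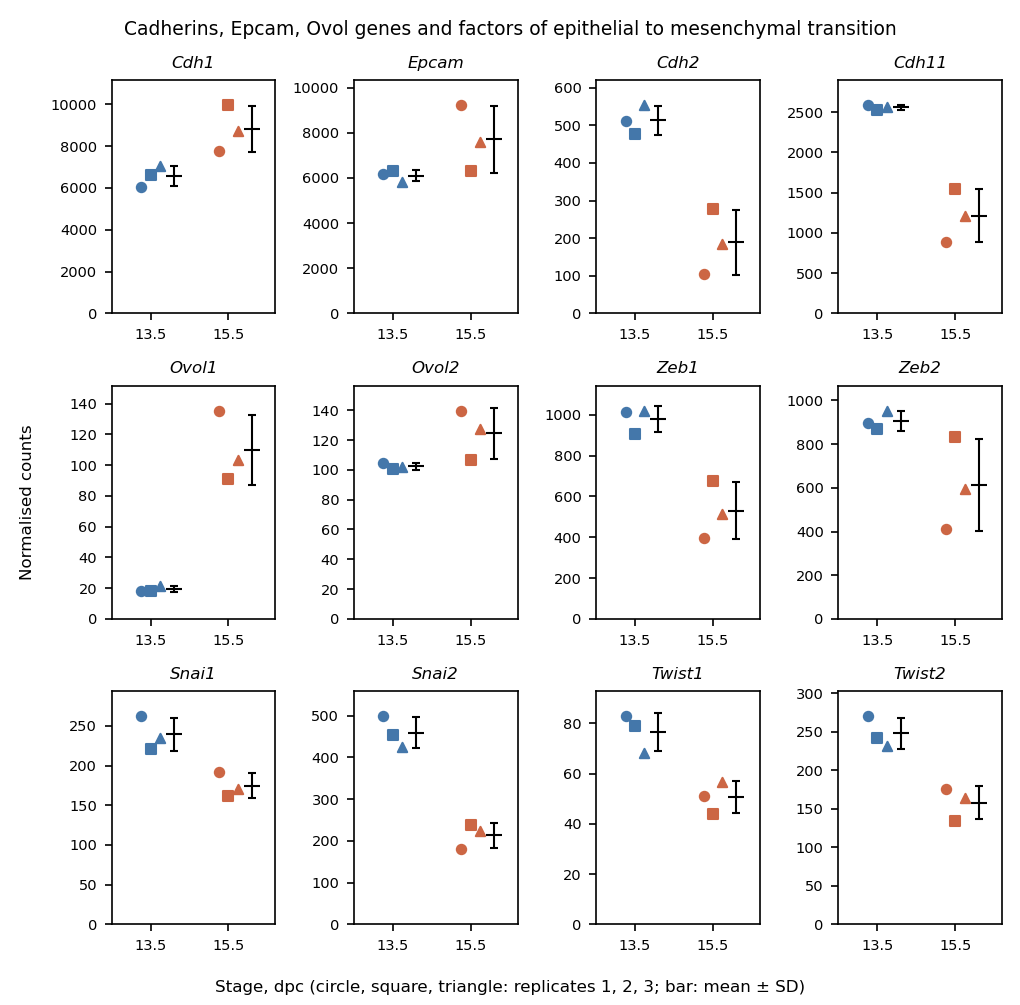
Normalised counts (y axis) of Cdh1, Epcam, Cdh2, Cdh11, Ovol1, Ovol2 and the 6 EMT factors at 13.5 and 15.5 dpc (x axis); circles, squares and triangles are replicates 1, 2 and 3, and bars are the mean ± SD. Cdh1 and Ovol1 sit higher and Cdh2, Cdh11, Snai2 and Zeb1 sit lower in all 3 samples of 15.5 dpc.

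Of 17 further genes of epithelial identity, 15 were tested, and 10 rose and none fell, beside 11.6% and 10.7% of all genes tested. The rises were led by Spdef, an Ets factor of secretory cells, with 128, 144 and 162 counts at 13.5 dpc against 870.5, 510.3 and 682.5 at 15.5 dpc (log2 2.25, SE 0.21, adjusted p = 0.000934). Grhl3, a relative of Grhl2, rose from 31.0, 36.0 and 38.8 counts to 134, 122 and 152 (log2 1.94, SE 0.16, adjusted p = 0.000716), and the membrane protease Tmprss4 rose by log2 1.89 (adjusted p = 0.00067). The count of rises was between 6 and 11 over all settings tried, and was 6 without replicate 1 or 3 of 13.5 dpc or without replicate 3 of 15.5 dpc. In those fits 4.54% to 5.4% of all genes tested rose.

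Membrane serine proteases and their Kunitz inhibitors control cleavage at the epithelial surface, and 3 of these 4 genes rose. Spint2 (chr7:29256331-29281977, minus strand), the inhibitor HAI-2, was the most abundant of the 44 genes at 364 RPKM ± 15.3 (SD, n = 3) at 13.5 dpc and 786 ± 303 at 15.5 dpc. It had 6840.0, 6913 and 6391 normalised counts and then 20700, 9823 and 12970. All 3 later libraries were higher, replicate 1 by the most, and the rise was 2.16-fold (log2 1.11, SE 0.25, adjusted p = 0.0204). The second inhibitor, Spint1 (HAI-1, chr2:119237362-119249527, plus strand), rose from 1598, 1719 and 1738 counts to 2643, 2213 and 2362 (log2 0.51, SE 0.10, adjusted p = 0.012). Their target St14 (matriptase, chr9:31089402-31131853, minus strand) rose from 1885, 1818 and 1908 counts to 2584, 2353 and 2492 (log2 0.40, SE 0.08, adjusted p = 0.0155). Tmprss2 was at 83.2 to 115 counts and then 82.8 to 86.9, with a log2 fold change of -0.26 that did not pass. Per length, Spint2 was 8.12, 7.63 and 6.98 times Spint1 at 13.5 dpc and 14.9, 8.42 and 10.4 times at 15.5 dpc. The calls of Spint2, Spint1 and St14 were lost when any 1 library of 13.5 dpc was left out or without replicate 3 of 15.5 dpc (adjusted p of up to 0.0908, 0.0768 and 0.0945).

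The genes of trafficking and the apical membrane did not overlap between the stages in any of the 3 cases, which held for 46.4% of all genes tested. Rab25 (chr3:88542029-88548300, minus strand), a GTPase of apical recycling endosomes in epithelia, had 528.5, 519 and 489.9 normalised counts at 13.5 dpc against 1237, 815 and 1014 at 15.5 dpc (1.99-fold, log2 0.99, SE 0.15, adjusted p = 0.00516). Ap1m2 (chr9:21295457-21312333, minus strand), the epithelial subunit of the adaptor that sorts proteins to the basolateral membrane, was the most abundant of the class at 34.1 RPKM ± 0.555 and then 56.9 ± 12.9 (SD, n = 3). It rose from 751, 759.6 and 735.5 counts to 1557, 1002 and 1187 (log2 0.74, SE 0.16, adjusted p = 0.0178), a call that was lost when any 1 library of 13.5 dpc was left out or without replicate 3 of 15.5 dpc (adjusted p of up to 0.0807). Prom1 (prominin), a protein of apical protrusions, had 1057, 1162 and 1108 counts and then 1762, 1246 and 1480.0, and its log2 fold change of 0.43 missed the threshold (SE 0.14, adjusted p = 0.0584).

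Because the libraries of 15.5 dpc differed by gene length, the 44 genes were also compared by length. Among the 22 genes below the median of 3499 exon bases, 11 rose and 1 fell, with a median log2 fold change of 0.55, and among the 22 others 8 rose and 2 fell, with a median of 0.28. The log2 fold change was related to exon length with a Spearman's rho of -0.39 over the 44 genes and -0.36 over all genes tested. After the length trend of each library had been removed, rho was -0.13 over the 44 genes, the medians of the shorter and longer genes were 0.49 and 0.45, and 26 genes rose and 4 fell. Among all genes tested the rises then were 18.1% and the falls 14.7%. All 22 called genes kept their calls, and Cldn7, F11r, Cgn, Dsp, Dsg2, Esrp1, Prom1 and, as a fall, Cldn6 were added. At 15.5 dpc replicate 1 was the highest library for 21 of the 44 genes and the lowest for 21, and replicate 2 was the highest for 18 and the lowest for 22. What gives rise to the length trend was not tested.

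**Figure D5:**
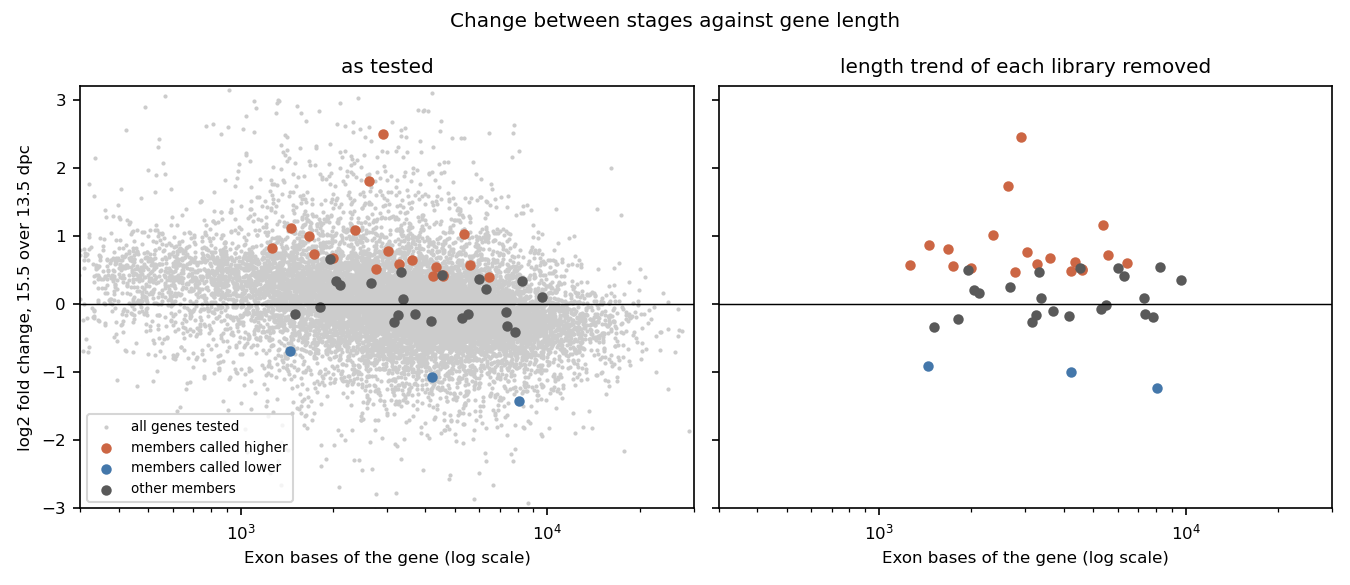
Log2 fold change, 15.5 over 13.5 dpc (y axis), against exon bases (x axis, log scale) as tested (left) and with the length trend of each library removed (right); coloured points are the genes that rose or fell as tested, dark points the other members of the 44, and grey points (left only) all genes tested within the axes. Shorter genes sit higher on the left, and on the right the medians of the shorter and longer genes are 0.49 and 0.45.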

How the data were processed

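RNA of wt pancreata at 13.5 and 15.5 dpc was measured, with 3 samples per stage grouped by the GEO labels. The authors aligned single-end reads to mm10 with GSNAP and counted uniquely aligned reads per Ensembl gene with featureCounts 1.4.6 (base calls with bcl2fastq 1.8.4). The deposited values are raw read counts, and the table's exon length per gene was written by featureCounts. The use of strand in counting is not given in the sources used here, so that reads of a gene and of an overlapping antisense gene cannot be told apart. Gene names came from the supplied name table, which matched 35449 of 37224 identifiers.

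Counts were tested with edgeR 4.0.16 (R 4.3.3, limma 3.58.1): filterByExpr, TMM factors (0.847 to 1.08), the quasi-likelihood test and Benjamini-Hochberg adjustment over 15578 genes, which held 99.86% to 99.88% of counts, with calls at an adjusted p of 0.05. Log2 fold changes are 15.5 over 13.5 dpc. The SE is the log2 fold change divided by the square root of F. RPKM and CPM used effective library sizes. Chi-square per gene was 1.61 to 4.95 between libraries of 13.5 dpc and 14.6 to 63.5 between those of 15.5 dpc. No library was thus an exact copy of another of its stage, which is all that these values can show. On simulated data 100 of 100 genes changed by log2 2 and 97 of 100 changed by log2 1 were recovered, with 7 false calls among 15421 genes. The simulated stages shared a single dispersion and had no length trend, and only well counted genes were changed. The real libraries of 15.5 dpc spread more and carried a length trend, so these figures do not measure recovery or false calls in the real data. Alternatives were other scaling, DESeq2 1.42.0, other filters, a replicate block, genes above 1% of counts taken out, removal of the length trend of each library (lowess, span 0.5), each sample left out, and the thresholds of the study's methods. The members and lists were chosen with earlier results of these data known. Values were given in full for the members that passed the test, up to 4 per class by size, and for the most abundant member per length of each class, and up to 3 called genes were named per further list by size; other values were added after they were seen. Promoter windows were read from RefSeq (GRCm38.p6). Other stages, genotypes and cultures of the study were not analysed here.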

Additional observations from a re-analysis of the deposited data

How the results depend on the processing

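Over 660 combinations of the 44 genes and 15 settings, 555 left direction and call as they were, 66 lost a call, 31 gained one and 8 turned the direction. All 22 called genes kept their direction. Scaling by library size alone shifted the median of all genes to -0.22 and that of the 44 to 0.175, with 12 rises and 4 falls beside 7.27% and 18.9% of all genes, and turned Marveld2 (-0.132) and Dsp (-0.0892). The median of the 44 was 0.352 with upper quartile scaling, 0.359 without a filter on low counts and 0.479 with the length trend removed, which turned Ctnnd1 (0.0872). The thresholds of the study's methods gave 9 rises.

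With the samples left out in turn, the count over all genes was 1235 to 7620 (3467 with all samples), the rises were 7 to 25, the falls 1 to 7 and the median 0.356 to 0.405. Genes that turned in such fits, all uncalled, ranged from -0.334 to 0.0222 (Cldn1, turned without replicate 1 of 13.5 dpc), -0.187 to 0.0264 (Cldn4, turned without replicate 2 or, at 0.012, replicate 3 of 15.5 dpc), -0.265 to 0.0187 (Ctnnd1, turned without replicate 1 of 15.5 dpc) and -0.184 to 0.277 (Dsp, turned without replicate 2 of 15.5 dpc). The cause was not tested. Leaving out a sample also leaves fewer samples to test.

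The deviations of same-numbered samples correlated at 0.2, -0.2 and 0.03 over genes. Differently numbered samples were not compared in this way, so these values cannot show whether the replicate numbers pair the samples. A replicate block in the fit left 15 rises (Ocln, Cdh1, Jup and St14 lost their calls) and 3 falls, and the median was 0.381 and 2676 genes were called in all. For further lists, chosen for this after the data were seen, the calls over all settings were 1 to 5 falls of EMT factors, 0 to 2 rises and 0 to 5 falls of tight junction genes, 1 to 6 falls of adherens junction genes, 1 to 3 rises of claudins, 0 or 1 fall of desmosomal genes, 6 to 11 rises of epithelial genes and 1 or 2 falls of gap junction genes. With 3 samples per stage and pools of embryos, the spread among single embryos is not measured.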

Other observations

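Gap junctions couple neighbouring cells through connexin channels, and the 5 connexin genes listed for them moved in both directions. Gjb1, the connexin 32 of secretory epithelia such as acini, had 418, 425 and 406 normalised counts at 13.5 dpc against 1286, 846 and 999.8 at 15.5 dpc (log2 fold change 1.32, SE 0.16, adjusted p = 0.00197 by edgeR). Gjb2, connexin 26, rose from 225, 226 and 232 counts to 357, 334 and 347.5 (log2 0.60, SE 0.10, adjusted p = 0.00541). Gja1, connexin 43, which is widespread in mesenchyme, fell from 1565, 1586 and 1592 counts to 728, 1160.0 and 844 (log2 -0.79, SE 0.17, adjusted p = 0.0158), and Gjc1 fell from 576 to 589.9 counts to 300.3 to 389.6 (log2 -0.79, SE 0.12, adjusted p = 0.00477). Gjd2, connexin 36, was at log2 0.37 and did not pass (adjusted p = 0.0704). The stages did not overlap for any of the 5, which held for 46.4% of all genes tested. Among all genes tested 11.6% rose and 10.7% fell. Without any single library of 13.5 dpc or replicate 3 of 15.5 dpc 1 of the falls was lost.

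Keratins 8 and 18, the filament pair of simple epithelia, rose together. Krt8 had 3982, 4123 and 4143 counts and then 8665, 5449 and 6577 (log2 0.76, SE 0.17, adjusted p = 0.0184), and Krt18 had 2953, 3246 and 3255 and then 9209, 5365 and 6744 (log2 1.17, SE 0.19, adjusted p = 0.00611). Krt19, of ducts, rose by log2 1.01 (adjusted p = 0.0217), whereas Krt7 was at 0.07 and did not pass (adjusted p = 0.696).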
